A study of Mus musculus with 12 samples.

Results

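Expression of 10 genes that mark satellite cells or their quiescence was described in mouse muscle stem cells (MuSCs) that lacked Nedd4L and in MuSCs that had entered culture. The genes were Pax7, Pax3, Calcr, Cd34, Chodl, Vcam1, Sdc3, Sdc4, Cxcr4 and Cav1, chosen by name as transcription factors and surface proteins of these cells. Earlier results of these data were known when they were chosen. All 10 of the 10 were found by symbol among the 16169 genes listed for the genotype comparison and the 16503 listed for the culture comparison, and all 10 passed the filter on low values in both. The 12 RNA-seq libraries, each of 1000 cells, came from hindlimb muscle of mice on a C57BL/6 background and fell into 4 groups of 3.

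The WT MuSC and Nedd4L-cKO MuSC groups were freshly sorted cells of male mice aged 5 to 6 weeks. Nedd4L-cKO mice were Nedd4L fl/fl; Pax7 cre/+, with Cre expressed from the Pax7 locus, so the deletion covers satellite cells and the fibers that descend from them. Whether the WT mice carried Cre or floxed alleles is not given in the sources used here. For Pax7 itself, an effect of the Cre insertion and an effect of Nedd4L loss cannot be told apart if the WT mice carried no Cre. The culture comparison held other libraries of freshly sorted WT MuSCs. Its myoblasts were WT cells grown for 3 days in growth medium with serum and bFGF. Each of these MuSC libraries shares its number with a myoblast library. The shared number is read here as a shared mouse, which the labels do not state. The age of the mice of this comparison is not given in the sources used here. The sort gate kept cells that carry integrin alpha 7 and lack CD31, CD45, CD11b and SCA1.

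Satellite cells lie between the muscle fiber and its basal lamina and stay out of the cell cycle until the muscle is injured. The paired-box factor PAX7 specifies them, and its paralog PAX3 is present in a subset that varies between muscles. Several surface proteins hold or report the quiescent state. The calcitonin receptor, activated by collagen V, raises cyclic AMP and keeps the cells at rest, and the syndecans present growth factors to their receptors. VCAM1, CD34, CXCR4 and caveolin 1 are used to sort or stain the same cells. When satellite cells activate, they express Myod1, divide as myoblasts and later express Myog.

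Of the 10 genes, 8 had an entry in a table of 250-base windows upstream of RefSeq start sites on GRCm38.p6. Pax3 and Vcam1 had none. The windows were searched on both strands for the E-box CANNTG, which basic helix-loop-helix factors bind, the homeodomain core TAATTA and the RBPJ core TGGGAA. Of all 32851 windows, 66.2% held an E-box, 4.84% held TAATTA and 21.6% held TGGGAA. The Chodl and Calcr windows are shown because those genes had the deepest falls in culture among the 10, and the Cd34 window because Cd34 changed with genotype. Capitals mark the matches.
Chodl, chr16:78930698-78930947, + strand: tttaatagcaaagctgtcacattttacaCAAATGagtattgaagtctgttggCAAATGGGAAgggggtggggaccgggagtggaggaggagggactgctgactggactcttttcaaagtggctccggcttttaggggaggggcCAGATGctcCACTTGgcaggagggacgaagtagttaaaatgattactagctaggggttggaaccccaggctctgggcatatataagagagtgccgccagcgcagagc
Calcr, outer of its start sites, chr6:3764714-3764963, - strand: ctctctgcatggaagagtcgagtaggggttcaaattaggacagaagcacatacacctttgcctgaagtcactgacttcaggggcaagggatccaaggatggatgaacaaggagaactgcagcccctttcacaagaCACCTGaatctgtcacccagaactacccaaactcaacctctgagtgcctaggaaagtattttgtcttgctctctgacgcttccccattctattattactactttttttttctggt
Cd34, chr1:194938571-194938820, + strand: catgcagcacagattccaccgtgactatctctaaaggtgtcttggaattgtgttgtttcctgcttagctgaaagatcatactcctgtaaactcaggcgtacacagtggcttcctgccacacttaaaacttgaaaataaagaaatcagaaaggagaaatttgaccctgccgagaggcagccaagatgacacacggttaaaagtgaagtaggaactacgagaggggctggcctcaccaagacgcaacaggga
Chodl held 4 E-boxes, whose first bases lay 222, 198, 107 and 98 bases before the start, and a TGGGAA match 194 bases before it that overlapped the E-box at 198. The Calcr window held 1 E-box, and a second Calcr window held none of the motifs. Cd34 held no match, and neither did Pax7, Sdc3, Sdc4 or Cxcr4. Each of the 2 Cav1 windows held 1 E-box, and 1 of them also held TGGGAA. None of the 10 windows held TAATTA.

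Expression is given as RPM, normalized counts scaled by the mean library total of each comparison to a total of 1000000. Normalized counts summed to between 40323468 and 50687122 in the genotype libraries and between 33189802 and 37595659 in the culture libraries. Read depth is unknown, since the deposited values had already been normalized. The targeted gene, Nedd4l, measured 70.2, 96.4 and 66.7 RPM in WT MuSCs and 30.2, 36.3 and 22.5 RPM after deletion, without overlap. That change was -1.37 (SE 0.28) on the scale of log2(RPM + 1), with an adjusted p of 0.0467 in limma, from 0.0200 to 0.210 over the alternatives and over 0.05 without any 1 of the 6 libraries. Normalized counts do not separate the floxed exon from the rest of the transcript. Nothing in the labels says that replicates were separate sorts beyond their numbers, so p-values measure the spread between these libraries.

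All 10 genes had values above 0 in every WT MuSC library, over a wide range of levels. Divided by exonic length, Sdc4 was highest at 1193 ± 511 RPM per kb (SD, n = 3) and ranked 19 of the 16104 listed genes with a length. Chodl, which encodes the membrane lectin chondrolectin, followed at 353 ± 50.3 RPM per kb, and Cav1, the coat protein of caveolae, at 251 ± 14.9. Calcr stood at 70.4 ± 6.64 RPM per kb, Vcam1 at 56.8 ± 8.53 and Pax7 at 40.3 ± 10.4. The library ranges of Vcam1 and Pax7 overlapped, whereas each other neighbouring pair in this order was apart. Cd34 lay at 23.9 ± 4.67 RPM per kb and Cxcr4, the receptor for the chemokine CXCL12, at 15.0 ± 3.39. Pax3 and Sdc3 closed the order at 1.89 ± 0.63 and 0.644 ± 0.18 RPM per kb, ranks 7943 and 11010.

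In the WT MuSCs of the culture comparison the same 3 genes led, with Sdc4 at 1141 ± 278, Chodl at 277 ± 66.5 and Cav1 at 236 ± 38.9 RPM per kb. The ranges of Chodl and Cav1 overlapped there, as did those of each neighbouring pair from Calcr down to Cxcr4 and those of Sdc3 and Pax3. The comparisons were normalized separately, so the MuSC groups were not tested against each other.

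**Figure D1:**
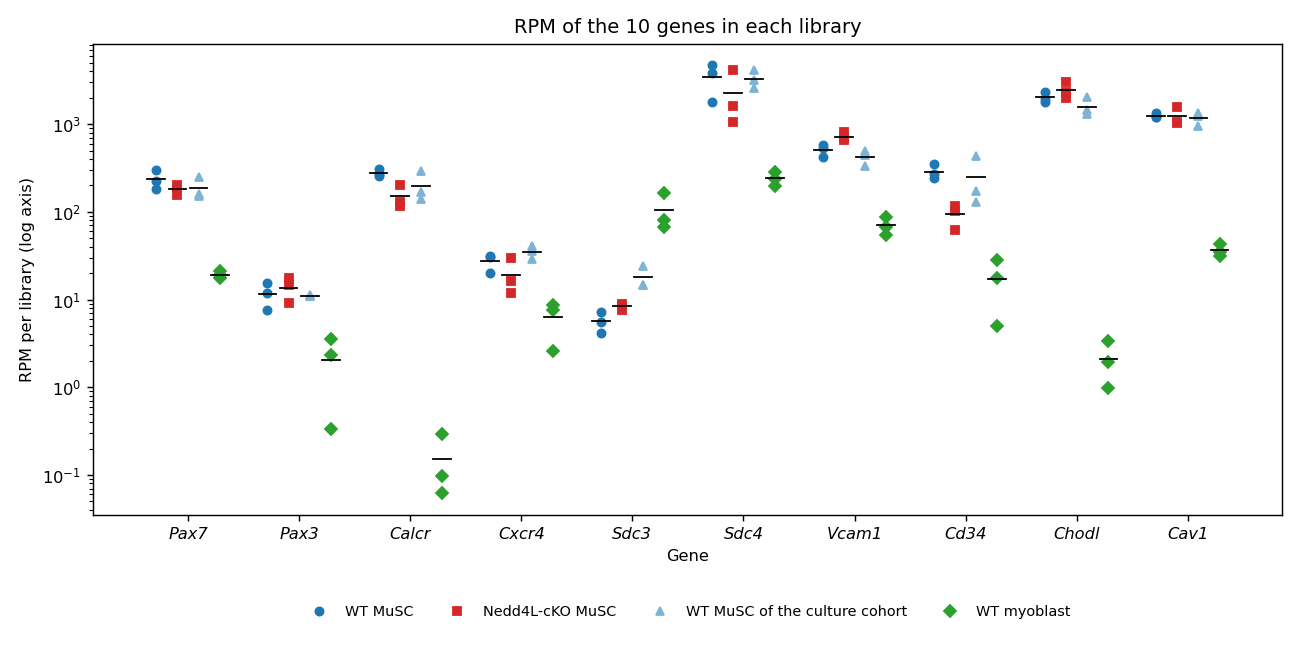
RPM of the 10 genes (log axis) in each of the 12 libraries, with 1 point per library, the group's mean as a black bar and the 4 groups side by side for each gene. Cd34 in Nedd4L-cKO MuSCs (62.5 to 116 RPM) lies below every WT MuSC library (243 to 349 RPM), and in myoblasts each gene except Sdc3 lies below the WT MuSCs of the culture comparison.

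The genotype comparison asked whether MuSCs without Nedd4L keep the expression of quiescent satellite cells. Cd34 fell in Nedd4L-cKO MuSCs, by 3.07 times in mean RPM, and was the only one of the 10 genes to pass the test. Pax7 and Pax3 overlapped between the genotypes, and so did Chodl, Cav1, Sdc4 and Cxcr4. Calcr was lower without overlap but did not pass the test. Vcam1 and Sdc3 were higher without overlap and did not pass either.

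Of the 15304 genes tested, 0.784% reached the adjusted p of 0.05 or less that counts as a call, 0.261% as lower and 0.523% as higher. Among the 10, 1 was called lower and 0 higher. Groups did not overlap for 4 of the 10, beside 19.3% of all tested genes. Of those 4 genes 2 were lower (9.59% of tested genes) and 2 higher (9.75%). An unadjusted limma p under 0.05 was reached by 2 of the 10, Cd34 and Calcr, beside 14.6% of all tested genes. Both were lower, as were 7.13% of tested genes with 7.51% higher. Over the 10 genes the median log2 fold change was -0.20, with a median of 0.0015 over all tested genes. With bulk libraries, fewer cells of a type and less RNA per cell cannot be told apart.

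The transcription factors came first in the order of roles. Pax7 (ENSMUSG00000028736, GRCm39 chromosome 4, 139464373 to 139560839, - strand) measured 183, 302 and 223 RPM in WT MuSCs and 156, 202 and 188 RPM in Nedd4L-cKO MuSCs. The groups overlapped, and the lowest library was a Nedd4L-cKO library. The log2 fold change was -0.35 (SE 0.26, 95% interval -0.92 to 0.22) with an adjusted p of 0.572 in limma, so a fall to below 0.5 times the WT level lies outside the interval. Pax3 (ENSMUSG00000004872, chromosome 1, 78077904 to 78173771, - strand) measured 7.61, 15.4 and 11.97 RPM against 14.5, 9.03 and 17.5 RPM. Its groups overlapped across most of their range, with a log2 fold change of 0.22 (SE 0.36, adjusted p of 0.823 in limma). Pax3 made up 4.41% ± 0.56 of the summed RPM per kb of Pax3 and Pax7 in WT MuSCs and 6.75% ± 2.32 in Nedd4L-cKO MuSCs (SD, n = 3).

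Calcr (ENSMUSG00000023964, chromosome 6, 3685680 to 3764714, - strand) is a receptor coupled to Gs. It measured 268, 304 and 254 RPM in WT MuSCs and 117, 204 and 131 RPM in Nedd4L-cKO MuSCs. All 3 Nedd4L-cKO libraries lay below all WT libraries. The log2 fold change of -0.90 (SE 0.27, 95% interval -1.49 to -0.32) had an adjusted p of 0.152 in limma and stayed above the threshold in every alternative run (0.102 to 0.465). Cxcr4 (ENSMUSG00000045382, chromosome 1, 128515936 to 128520044, - strand) measured 31.4, 30.5 and 20.3 RPM against 11.97, 16.2 and 29.5 RPM. One Nedd4L-cKO library, replicate 03, stood within the WT range, and the log2 fold change was -0.56 (SE 0.35, adjusted p of 0.498 in limma).

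Syndecans 3 and 4 are transmembrane heparan sulfate proteoglycans that differed widely in level. Sdc4 (ENSMUSG00000017009, chromosome 2, 164266025 to 164285807, - strand) measured 3880, 4681 and 1812 RPM in WT MuSCs and 1045, 1618 and 4158 RPM in Nedd4L-cKO MuSCs. The groups overlapped, and replicate 03 was the lowest of the WT group and the highest of the Nedd4L-cKO group. With that spread the 95% interval of the log2 fold change, -1.79 to 0.30, was the widest of the 10. Sdc3 (ENSMUSG00000025743, chromosome 4, 130519826 to 130556217, + strand) measured 7.30, 4.17 and 5.61 RPM against 8.78, 7.69 and 8.81 RPM. Each Nedd4L-cKO library was above each WT library, by a log2 fold change of 0.52 (SE 0.33, adjusted p of 0.511 in limma).

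Among the adhesion genes Cd34 passed the test. Cd34 (ENSMUSG00000016494, chromosome 1, 194621029 to 194647172, + strand) encodes a sialomucin that covers quiescent satellite cells. It measured 267, 349 and 243 RPM in WT MuSCs and 116, 102 and 62.5 RPM in Nedd4L-cKO MuSCs, means of 286 ± 55.9 and 93.3 ± 27.7 RPM (SD, n = 3). The highest Nedd4L-cKO library was below the lowest WT library. The log2 fold change was -1.64 (SE 0.29, 95% interval -2.26 to -1.01) with an adjusted p of 0.0293 in limma, the 53rd smallest p among the tested genes. Cd34 lost its call without WT replicate 01 (adjusted p of 0.0642 in limma), WT replicate 02 (0.131) or Nedd4L-cKO replicate 02 (0.112), and in limma without its trend and robust options (0.0684). The log2 fold change stayed between -1.81 and -1.37 in all 14 alternatives.

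Vcam1 (ENSMUSG00000027962, chromosome 3, 115903598 to 115923355, - strand) encodes an immunoglobulin-family ligand of integrin alpha 4 beta 1. It measured 425, 574 and 534 RPM in WT MuSCs and 815, 696 and 658 RPM in Nedd4L-cKO MuSCs. All Nedd4L-cKO libraries were above all WT libraries, and the log2 fold change of 0.51 (SE 0.24, 95% interval -0.0091 to 1.02) had an adjusted p of 0.349 in limma.

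Chodl (ENSMUSG00000022860, chromosome 16, 78727732 to 78748624, + strand) measured 1775, 2339 and 1951 RPM in WT MuSCs and 2322, 3039 and 1976 RPM in Nedd4L-cKO MuSCs. Its groups overlapped, with a log2 fold change of 0.26 (SE 0.25, 95% interval -0.28 to 0.80). Cav1 (ENSMUSG00000007655, chromosome 6, 17306140 to 17341451, + strand) measured 1201, 1223 and 1339 RPM against 1040, 1586 and 1069 RPM. The Nedd4L-cKO libraries lay on both sides of the WT range. Cav1 had the smallest log2 fold change of the 10, -0.053 (SE 0.25, 95% interval -0.59 to 0.48). The intervals of Pax7, Chodl and Cav1 lay within 1 log2 unit of 0, as did those of 47.8% of tested genes.

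**Figure D2:**
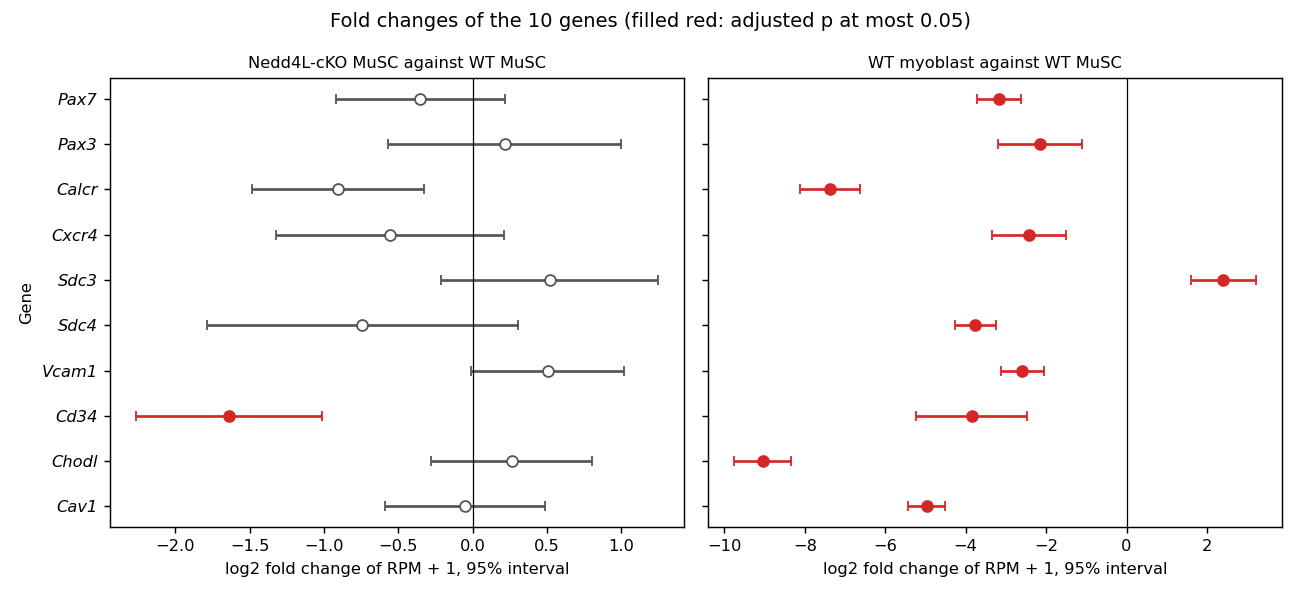
Log2 fold change of RPM + 1 with its 95% limma interval for the 10 genes, Nedd4L-cKO MuSC against WT MuSC on the left and WT myoblast against WT MuSC on the right, on different horizontal scales. Filled red points passed an adjusted p of 0.05, which in the left panel is Cd34 alone and in the right panel all 10 genes, with Sdc3 to the right of 0.

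The members were also set against Pax7 within each library, which removes a scaling factor shared by all genes of that library. The authors' normalization factors differ between genes as well, and that part stays in a ratio, as does the added 1 RPM for low genes. The log2 ratio of Cd34 to Pax7 was 0.29 ± 0.22 in WT MuSCs and -0.99 ± 0.58 in Nedd4L-cKO MuSCs (SD, n = 3), so Cd34 was above Pax7 in RPM + 1 in one genotype and below it in the other. Libraries did not overlap, and the difference of -1.28 had an exact two-sided permutation p of 0.1, the smallest that 3 libraries against 3 allow. Vcam1 and Chodl were also apart relative to Pax7, by 0.86 and 0.61. The lower Pax7 of Nedd4L-cKO MuSCs (log2 fold change -0.35, not called) enters each of these ratios. The limit given above for Pax7 and the Cre insertion holds for them too. On their own, Vcam1 changed by 0.51 and Chodl by 0.26, and the Chodl groups overlapped. The share of all genes apart relative to Pax7 was not computed. The ratio of Calcr to Pax7 overlapped, with a difference of -0.55 (exact two-sided permutation p = 0.2). After adjustment over the 9 ratios the smallest p was 0.3.

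**Figure D3:**
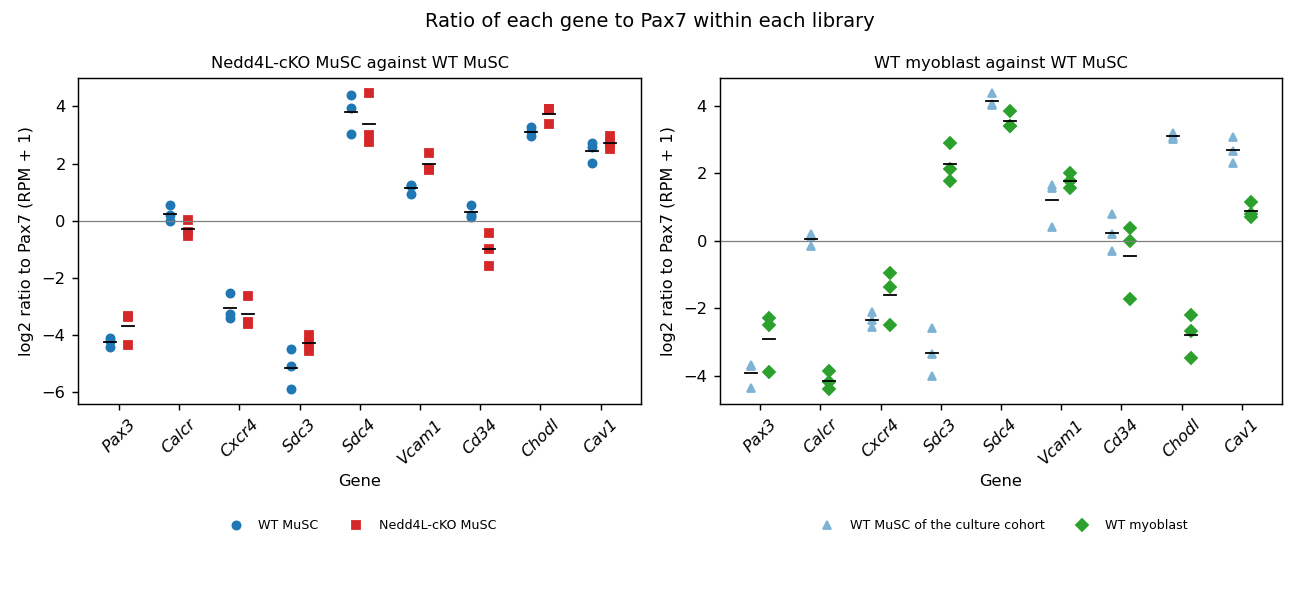
Log2 ratio of each of the other 9 genes to Pax7 (RPM + 1 for both) in each library, the genotype comparison on the left and the culture comparison on the right, with group means as black bars and the grey line at equal levels. Cd34 lies above Pax7 in WT MuSCs (mean 0.29) and below it in Nedd4L-cKO MuSCs (mean -0.99), and Calcr and Chodl drop below Pax7 in myoblasts.

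Other genes of satellite cells and of the pathways in which the 10 act were examined next. Among 20 other satellite cell markers 1 was called lower in Nedd4L-cKO MuSCs and 0 higher, beside 0.261% and 0.523% of all tested genes. Their median log2 fold change was -0.18, with 0.0015 over all tested genes. This list, like the others, was chosen with earlier results of these data known, and the authors had reported its called gene as lower. The called gene was Chrdl2, which encodes a chordin-like antagonist of BMP signals, at 270 RPM in WT MuSCs and 48.4 RPM in Nedd4L-cKO MuSCs on average (log2 fold change -2.46, SE 0.27, adjusted p of 0.00296 in limma). Not past the threshold were Spry1, an inhibitor of growth factor signalling (-1.58, adjusted p of 0.0772 in limma), Fgfr4 (-1.10, 0.169) and Heyl, a Notch target (-0.93, 0.140). Groups of these 3 did not overlap. Of the 20 markers 5 were apart in this way, beside 19.3% of all tested genes. Spry1 passed without Nedd4L-cKO replicate 03 (-2.01, adjusted p of 0.0183 in limma) and when every library had to hold 10 normalized counts (0.0318).

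Gpc3, a lipid-anchored heparan sulfate proteoglycan, rose in Nedd4L-cKO MuSCs from 8.24 to 46.9 RPM (log2 fold change 2.53, SE 0.40, adjusted p of 0.0184 in limma) and was the 1 of 11 tested syndecan and glypican genes to be called. That call was lost without Nedd4L-cKO replicate 01, 02 or 03 (adjusted p of 0.0592, 0.0932 and 0.0537 in limma). Over all tested genes 0.784% were called and 14.6% had an unadjusted limma p under 0.05. None of the 17 tested partners of the calcitonin receptor passed the limma test at an adjusted p of 0.05, and 3 had an unadjusted p under 0.05. The same limma test called none of 10 genes of the CXCR4 axis (1 with an unadjusted p under 0.05), 9 of the caveola (2), 10 cofactors of PAX3 and PAX7 (2) and 3 CD34 relatives (1). Among 7 partners of VCAM1 none was called and none had an unadjusted limma p under 0.05. Nearest to the threshold in those lists was Carm1, an arginine methyltransferase that acts with PAX7 (-1.78, adjusted p of 0.0579 in limma). Carm1 passed without WT replicate 03 (-2.05, 0.0471) and with 10 normalized counts required in every library (0.0272). Podxl2, a relative of Cd34, had a log2 fold change of -1.19 (adjusted p of 0.177 in limma).

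Cd34 is also expressed by endothelial cells, hematopoietic progenitors and fibro-adipogenic cells, so their markers were read beside it. Summed over the listed endothelial markers, 6 of 10, the level was 65.0 to 112 RPM in WT MuSCs and 55.3 to 101 RPM in Nedd4L-cKO MuSCs. Of those 6 none was called by limma and 2 had an unadjusted p under 0.05, beside 14.6% of all tested genes. Cdh5, Kdr, Cldn5 and Emcn were not analysed here for this comparison. Tek, which satellite cells also express, lay at 40.9, 79.6 and 59.6 RPM in WT MuSCs and at 19.1, 28.4 and 21.6 RPM in Nedd4L-cKO MuSCs (log2 fold change -1.31, adjusted p of 0.0729 in limma, and 0.0369 with 10 normalized counts required in every library), while Pecam1, the CD31 of the gate, averaged 18.7 and 31.8 RPM. Hematopoietic markers, 6 of 10 listed, summed to 2.24 to 39.2 and 2.68 to 10.2 RPM, and Ptprc stayed below 0.5 RPM in all 6 libraries. The 10 fibro-adipogenic markers summed to 4021, 2615 and 3262 RPM in WT replicates 01 to 03 and to 4189, 3289 and 2298 RPM in Nedd4L-cKO replicates 01 to 03. In the WT group the library with the most Cd34 had the lowest sum, and in the Nedd4L-cKO group the order of the sums was that of Cd34. Their defining gene Pdgfra averaged 0.697 RPM in WT MuSCs and 0.633 RPM in Nedd4L-cKO MuSCs.

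Summed myofiber and mural markers did not overlap between the genotypes. The 10 myofiber genes were all higher in the mean of Nedd4L-cKO MuSCs, summing to 276 to 523 RPM in WT and 599 to 766 RPM in Nedd4L-cKO libraries. None of the 10 was called by limma and 6 had an unadjusted p under 0.05. For this and the next lists, that share over all tested genes was 14.6%. The 10 mural genes summed to 1688 to 2416 and 2661 to 3889 RPM, without overlap, with none called by limma and 5 at an unadjusted p under 0.05. In the culture comparison that sum was 1689 to 1965 RPM in MuSCs and 3036 to 3348 RPM in myoblasts, also without overlap. Of the mural genes Des was the 1 called higher in myoblasts, and 2 were called lower. The 8 Schwann genes summed to 24.7 to 64.9 RPM in WT and 12.2 to 41.8 RPM in Nedd4L-cKO libraries, with overlap. None of the 8 was called by limma and 2 had an unadjusted p under 0.05. The part of these cell types in the lower Cd34 was not tested. Itga7, the positive gene of the gate, averaged 118 ± 11.9 and 115 ± 22.6 RPM (SD, n = 3).

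Among 10 myoblast and cell cycle genes, Ccnb1, a mitotic cyclin, rose from 17.9 to 75.4 RPM (log2 fold change 2.20, adjusted p of 0.0325 in limma). Its call was lost without WT replicate 02 or 03 (0.116 and 0.0536 in limma) and without any of the 3 Nedd4L-cKO libraries (0.0696 to 0.114), and in limma without trend and robust options (0.0730). The other 9 were not called, and Myod1 averaged 73.5 ± 40.4 RPM in WT and 80.1 ± 5.33 RPM in Nedd4L-cKO MuSCs. Early response genes that rise when muscle is dissociated summed to 7041 to 8574 and 7551 to 8833 RPM, with overlap.

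The culture comparison set freshly sorted MuSCs against cultured myoblasts, and there the whole set moved. In myoblasts 9 of the 10 genes fell and Sdc3 rose. Chodl and Calcr fell to near 0, Cav1, Cd34 and Sdc4 fell by more than 10 times, and Pax7, Vcam1, Cxcr4 and Pax3 by less. The myoblast libraries lay wholly outside the range of the MuSC libraries for each of the 10.

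Of the 15345 genes tested, 42.8% were called, 20.6% as lower in myoblasts and 22.2% as higher, beside 9 and 1 of the 10. Groups did not overlap for 55.2% of tested genes, lower for 26.8% and higher for 28.4%. The median log2 fold change was -3.47 over the 10 and 0.039 over all tested genes. The calls of all 10 held in every alternative in which the gene was tested.

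Pax7 measured 249, 158 and 151 RPM in MuSCs and 18.9, 21.2 and 17.8 RPM in the myoblasts of the same numbers. Its mean fell by 9.64 times (log2 fold change -3.17, SE 0.24, adjusted p of 2.36e-05 in limma), and the myoblast libraries were close to each other. Pax3 measured 11.3, 11.1 and 10.9 RPM in MuSCs and 0.333, 3.52 and 2.35 RPM in myoblasts. Every myoblast library lay below every MuSC library (log2 fold change -2.15, SE 0.46, adjusted p of 0.00538 in limma). The share of Pax3 in the summed RPM per kb of both was 5.59% ± 1.29 in MuSCs and 8.78% ± 6.30 in myoblasts (SD, n = 3).

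Calcr measured 289, 141 and 166 RPM in MuSCs and 0.0978, 0.0620 and 0.295 RPM in myoblasts. It went from rank 945 to rank 16021 of the 16437 listed genes with a length. The log2 fold change was -7.38 (SE 0.33, adjusted p of 1.60e-06 in limma) and depended on the pseudocount, from -9.67 at 0.1 RPM to -5.24 at 5 RPM. Cxcr4 measured 41.3, 35.9 and 28.7 RPM in MuSCs and 2.57, 7.59 and 8.65 RPM in myoblasts. It fell in each same-numbered pair (log2 fold change -2.43, SE 0.41, adjusted p of 0.00162 in limma).

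Sdc3 and Sdc4 moved in opposite directions. Sdc4 measured 4180, 2589 and 3148 RPM in MuSCs and 287, 236 and 197 RPM in myoblasts (log2 fold change -3.77, SE 0.22, adjusted p of 6.83e-06 in limma). Sdc3 measured 14.6, 14.7 and 24.4 RPM in MuSCs and 67.3, 164 and 81.7 RPM in myoblasts (log2 fold change 2.41, SE 0.36, adjusted p of 0.000877 in limma). Sdc4 was still the more abundant per length in myoblasts, at 82.9 ± 15.5 RPM per kb against 11.8 ± 5.93 for Sdc3. Within the 4 syndecans, Sdc4 held 97.7% ± 0.76 of the summed RPM per kb in MuSCs and 64.1% ± 4.88 in myoblasts. The share of Sdc3 went from 0.180% ± 0.068 to 9.18% ± 4.08, with those of Sdc1 and Sdc2 reaching 12.8% ± 1.81 and 13.9% ± 0.997 (SD, n = 3).

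Vcam1 measured 333, 499 and 444 RPM in MuSCs and 66.9, 88.1 and 55.0 RPM in myoblasts (log2 fold change -2.59, SE 0.24, adjusted p of 5.63e-05 in limma). Cd34 measured 437, 128 and 175 RPM in MuSCs and 5.02, 28.1 and 17.7 RPM in myoblasts. Replicate 04 had the highest Cd34 of the MuSC libraries and the lowest of the myoblast libraries. The Cd34 fold change of -3.85 on the log2 scale (SE 0.60, adjusted p of 0.00114 in limma) had the largest SE of the 10. Relative to Pax7, Cd34 overlapped between MuSCs and myoblasts, with a difference of -0.69 (exact two-sided permutation p = 0.5).

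Chodl measured 2015, 1449 and 1289 RPM in MuSCs and 3.34, 0.989 and 1.93 RPM in myoblasts. No myoblast library reached 4 RPM, and the log2 fold change of -9.05 (SE 0.31, adjusted p of 6.30e-07 in limma) was the 4th deepest fall of all tested genes. Cav1 measured 1232, 1343 and 965 RPM in MuSCs and 43.0, 35.2 and 31.7 RPM in myoblasts, a fall of 32.2 times (log2 fold change -4.97, SE 0.20, adjusted p of 1.07e-06 in limma). Relative to Pax7, the log2 ratio of Calcr changed by -4.21, of Chodl by -5.88, of Cav1 by -1.80 and of Sdc4 by -0.60, and that of Sdc3 by 5.58. Groups did not overlap for these 5 ratios, each with an exact two-sided permutation p of 0.1, the smallest possible, and an adjusted p of 0.18 over the 9 ratios. The Calcr ratio ran from -6.44 to -2.30 with pseudocounts of 0.1 and 5 RPM. Without MuSC replicate 04, 05 or 06 the Sdc4 ratio had an exact permutation p of 0.2, with the groups still apart.

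The caveolins changed places in culture. Cav1 held 90.2% ± 2.59 of the summed RPM per kb of Cav1, Cav2 and Cav3 in MuSCs and 5.12% ± 4.43 in myoblasts, and the muscle caveolin Cav3 held 0.494% ± 0.036 and 93.7% ± 4.83 (SD, n = 3). Cav3 rose from a mean of 1.65 to 266 RPM (log2 fold change 6.40, SE 0.49, adjusted p of 2.31e-05 in limma). Of 9 other caveola genes, 4 rose (Cavin4, Cav3, Pacsin3 and Pacsin2) and 4 fell (Cavin3, Cav2, Cavin2 and Ehd2). Over all tested genes 22.2% were called higher and 20.6% lower. Ehd2 lost its call without any 1 library except MuSC replicate 04 (adjusted p of 0.0610 to 0.128 in limma). Cavin4, the muscle cavin, rose by 7.66 on the log2 scale, and Cavin1 averaged 510 and 479 RPM without a call.

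**Figure D4:**
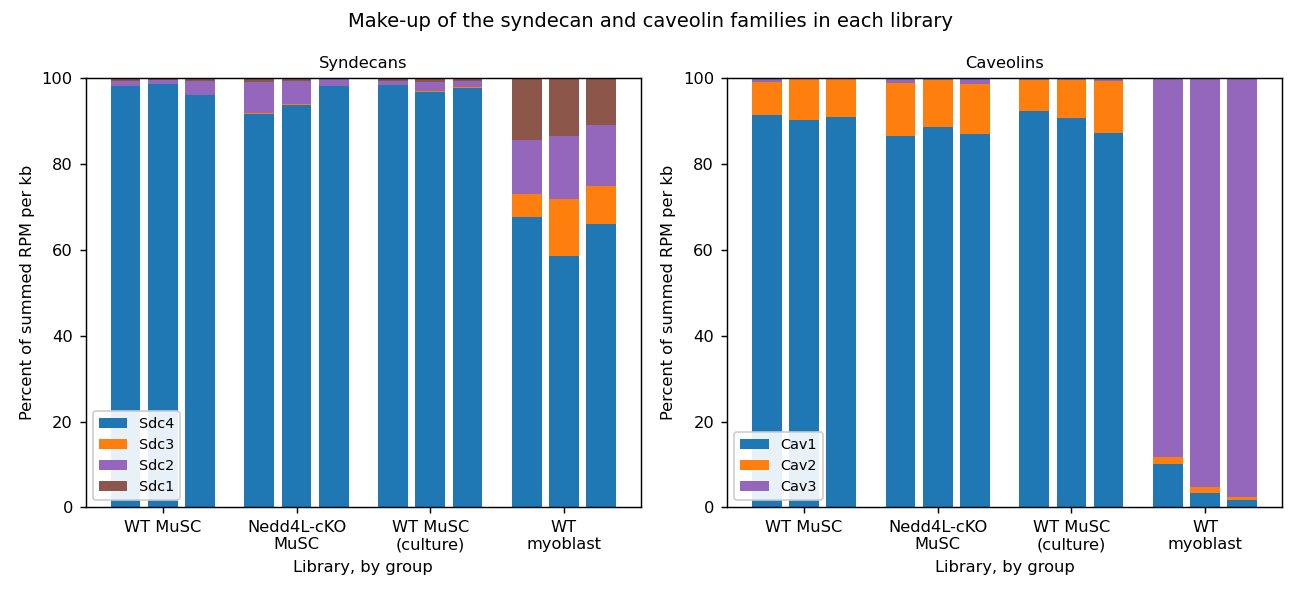
Percent of the summed RPM per kb that each gene contributed to the 4 syndecans (left) and the 3 caveolins (right), with 1 stacked bar per library and 3 libraries per group. Sdc4 and Cav1 fill over 85% of the bars in all MuSC groups, and in myoblasts Cav3 fills 88.3% to 97.6% of the caveolin bars.

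Among the 20 other satellite cell markers, 10 fell in myoblasts and 4 rose, with a median log2 fold change of -0.81. Over all tested genes 20.6% were called lower and 22.2% higher. Chrdl2 fell from 387 to 1.20 RPM and Heyl from 370 to 14.9 RPM. Also lower were Hey1, Spry1, Myf5, Eya1, Fgfr4, Cd82, Nfix and Six4. Among those that rose were Ncam1 (log2 fold change 1.88), the HGF receptor Met (1.59) and Fzd7 (1.31). Fzd7 lost its call without MuSC replicate 06 or myoblast replicate 05 or 06 (adjusted p of 0.0747 to 0.0876 in limma). Six4 lost its own without MuSC replicate 04 or 06 or myoblast replicate 06 (0.0547 to 0.0804) and with the mouse as a block (0.0530).

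Partners of the calcitonin receptor fell in 6 of 18 tested cases and rose in 2, beside 20.6% of all tested genes called lower and 22.2% higher. The collagen V chains Col5a3 and Col5a1, from which its ligand is built, fell by 6.28 and 4.16 on the log2 scale, and the receptor-modifying protein Ramp2 by 5.43. The collagen V chain Col5a2 was not called (196 to 143 RPM, log2 fold change -0.46, adjusted p of 0.0916 in limma). Gnas, which encodes the Gs alpha subunit, went from 1833 to 681 RPM (log2 fold change -1.46). Lats1 and Prkar1a were the others to fall, and Prkar1a lost its call without MuSC replicate 04 or 05 or myoblast replicate 05 or 06 (adjusted p of 0.0634 to 0.0893 in limma). Ramp1 rose from 0.204 to 22.8 RPM, and Ramp3 from 0 in all MuSC libraries to 8.38 RPM on average.

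Of 10 genes of the CXCR4 axis 3 fell and 1 rose. For this and the next lists, the shares over all tested genes were 20.6% called lower and 22.2% higher. The scavenger receptor Ackr3 fell from 154 to 22.9 RPM and the ligand Cxcl12 rose from 11.3 to 100.3 RPM (log2 fold change 2.98, SE 0.29, adjusted p of 7.74e-05 in limma). Grk3 and Arrb1, which act in receptor desensitization, fell by 3.54 and 1.65 on the log2 scale. Of 7 partners of VCAM1, 4 rose and none fell: the integrin subunit Itga4 (log2 fold change 2.30), Itga9 (0.66), Ezr (1.99) and Msn (0.90). Itga4 lost its call without myoblast replicate 05 (adjusted p of 0.0563 in limma), and Itga9 without MuSC replicate 05 (0.0847) or myoblast replicate 06 (0.0838). Itga9 averaged below 1 RPM in both groups, and its log2 fold change ran from 0.18 to 2.02 with pseudocounts of 5 and 0.1 RPM. The heparan sulfate proteoglycans Gpc1, Gpc2 and Sdc1 rose, and Gpc3 fell (log2 fold change -3.29, adjusted p of 0.000569 in limma), the opposite of its direction in Nedd4L-cKO MuSCs. Among 10 cofactors of PAX3 and PAX7, 4 rose (Rbbp5, Mamstr, Carm1 and Wdr5) and Paxbp1 fell. Carm1 reached an adjusted p of 0.0487 in limma and lost its call without any 1 of 5 libraries, MuSC replicates 05 and 06 and myoblast replicates 04 to 06 (0.0667 to 0.125). Of the 4 tested relatives and partners of CD34, Podxl2 fell (-2.58), and Crkl (1.40) and Selp (2.82) rose. Selp averaged 0.0201 RPM in MuSCs and 6.24 RPM in myoblasts, and its log2 fold change ran from 1.16 to 5.75 over the alternatives. Crkl lost its call with the mouse as a block (0.0576) and without MuSC replicate 05 or 06 or myoblast replicate 05 or 06 (0.0782 to 0.110).

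**Figure D5:**
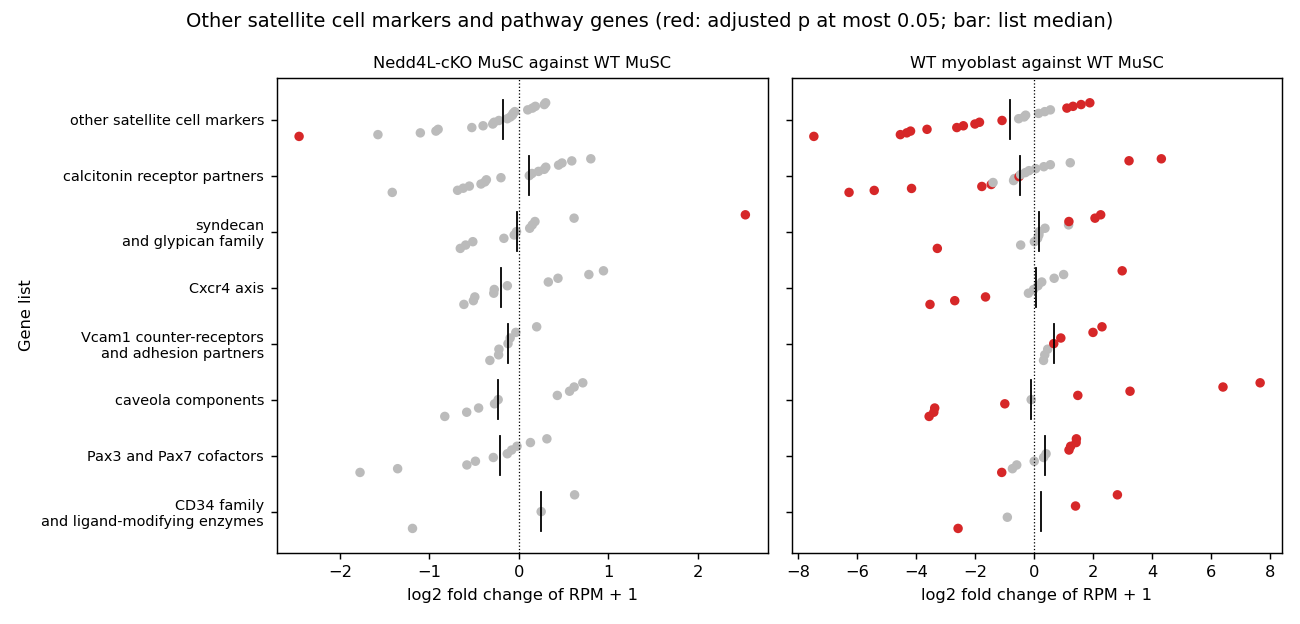
Log2 fold change of RPM + 1 for each tested gene of 8 lists related to the 10 genes, Nedd4L-cKO MuSC against WT MuSC on the left and WT myoblast against WT MuSC on the right, with called genes in red, others in grey and the median of each list as a bar. In the left panel the called genes are Chrdl2 (-2.46) and Gpc3 (2.53), and in the right panel called genes lie on both sides of 0 in every list except the partners of VCAM1.

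The labels of the culture libraries were read against other genes. Calls in these lists stand beside 22.2% of all tested genes called higher and 20.6% lower. Myod1 rose from 178 ± 10.7 to 1379 ± 402 RPM and Myog from 659 to 3747 RPM, and 4 of 10 myoblast and cell cycle genes were called, all higher, the others being Mcm5 and Mcm2. The proliferation genes Mki67 (92.0 RPM in MuSCs and 71.9 RPM in myoblasts), Pcna, Cdk1, Ccnb1, Top2a and Ccnd1 were not called and overlapped between the groups. Mcm2, whose groups overlapped as well, lost its call with the mouse as a block (adjusted p of 0.0542 in limma) and without MuSC replicate 04 or 06 or myoblast replicate 04 or 05 (0.0975 to 0.130). Myofiber genes summed to 384 to 595 RPM in MuSCs and 9891 to 23119 RPM in myoblasts, with 7 of 10 called higher. Fibro-adipogenic markers summed to 3103 to 3658 RPM in MuSCs and 254 to 358 RPM in myoblasts, led by Col3a1 and Gsn, and Dpt was at 0 in all 3 myoblast libraries. Pdgfra averaged 1.19 and 1.33 RPM. Endothelial markers, 5 of 10 listed, summed to 44.8 to 47.0 and 13.9 to 24.6 RPM, with Cdh5 below 0.5 RPM in all 6 libraries. Early response genes summed to 9594 to 15822 RPM in MuSCs and 625 to 806 RPM in myoblasts, and 9 of those 10 genes fell, Fos by 8.24 on the log2 scale. They moved in the same direction as 9 of the 10 genes described here, and their part in those falls was not tested.

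Set side by side, the 2 comparisons shared no libraries, and the sign of the change was the same for 7 of the 10 genes. The share of all tested genes with the same sign was not computed, so that count has no background. Among the 7, Cav1 (-0.053 by genotype) changed sign without Nedd4L-cKO replicate 01 or 03. Pax3, among the others, changed sign without WT replicate 01. Cd34 changed by -1.64 in Nedd4L-cKO MuSCs and by -3.85 in myoblasts, Calcr by -0.90 and -7.38, and Pax7 by -0.35 and -3.17. Pax3, Chodl and Vcam1 had positive values of 0.22, 0.26 and 0.51 in the genotype comparison and fell in culture. Of these genotype values only that of Cd34 passed its test, and the difference between the comparisons was not tested.

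Genes whose pattern over the 6 genotype libraries was most like that of Pax7 were found by the root mean square difference of centred log2(RPM + 1) values among 10049 genes. They were Nadk2 (0.055), Pde1c (0.073), Pknox1 (0.083), Mapk14 (0.087) and Mapk8ip3 (0.091). For Calcr they were Fnip1 (0.11), St3gal5 (0.11), Nfx1 (0.11), Pfkp (0.12) and Prpf39 (0.12). The libraries also share their scaling and genotype, and likeness over 6 libraries is given as a description.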

How the data were processed

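RNA was sequenced from 12 libraries of 1000 cells. The authors quantified transcripts with kallisto 0.46.1, summed estimates to genes and normalized them with DESeq2. The deposited values are a signal, counts that the authors divided by factors that differ between genes and libraries, with 1 table per comparison. Deposited fold changes and p-values are the authors' own comparisons and were not used, nor were the RPM columns of the genotype table. Sequence depth could not be recovered. Samples were grouped by title.

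Normalized counts were scaled by the mean of the 6 library totals to a total of 1000000 (RPM). A gene was tested if 3 or more libraries held 10 or more normalized counts, on log2(RPM + 1), which understates the change of low genes, with limma 3.58.1 in R 4.3.3 (trend and robust options, group as the only term, Benjamini-Hochberg over all tested genes, within a table). A call needed an adjusted p of 0.05 or less. The limma step was tested on simulated data. Ratios to Pax7 were tested by exact permutation over all divisions of the libraries, in Python 3.11.15. Positions and exonic lengths came from GENCODE M39 on GRCm39, and promoter windows from RefSeq on GRCm38.p6.

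Members and lists were chosen with earlier results of these data known. All members were named, with list genes past the call in either comparison and otherwise at most the 3 of largest change at a mean of at least 5 RPM, and the 5 genes most like Pax7 and Calcr. Some list genes within this rule are given as counts, and 1 is not reported here. Other pseudocounts, filters, scalings, limma options, a replicate block and leaving out each library were tried. In the labels each culture MuSC library shares a number with a myoblast library. The shared number was read as a shared mouse, although deviations of same-numbered libraries correlated by -0.031, -0.0050 and 0.018. The labels give no batch, although the deposited names of some culture libraries carry a further mark whose meaning is not given.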

Additional observations from a re-analysis of the deposited data

How the results depend on the processing

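In the genotype comparison the count of the 10 genes called lower, 1, became 0 in limma without trend and robust options, and ranged from 0 to 1 when each library was left out in turn. The gene lost was Cd34, and its values are given with its result. Leaving out libraries, Pax3 ranged from -0.037 (without WT replicate 01) to 0.47 and Cav1 from -0.25 to 0.055 (without Nedd4L-cKO replicate 01, with 0.035 without 03), and neither was called. The other 133 of 140 gene values kept direction and call, as did all 139 in culture. There Calcr was not tested when 10 normalized counts were required in every library, which left 8 genes called lower. A replicate block for the mouse gave culture counts of 9 lower and 1 higher again. Same-numbered genotype libraries are different mice, with deviations correlated by 0.019, -0.023 and -0.18, and the block there left Cd34 at a limma adjusted p of 0.0467. Of 83 other list genes called in culture 10 lost their call in at least 1 alternative, namely Carm1, Mcm2, Ehd2, Prkar1a, Crkl, Six4, Cd68, Itga9, Fzd7 and Itga4. In the genotype comparison Spry1, Tek and Carm1 passed in some alternatives, as given with their results. With a library left out, called genes reached 1 of the myofiber list, 1 of the early response list and 2 of the myoblast list. Neither block changed the call of a gene among the 10. Scaling each library to its own total moved the median log2 fold change of all genes to -0.091 and 0.14. Read depth is unknown, so no counting interval could be given for Calcr and Chodl in myoblasts, and 3 libraries a group limit what the genotype comparison could call.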
